A study of Drosophila melanogaster with 73 samples.

Results

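The transcripts of 7 core clock genes were followed hour by hour in the abdominal fat body of flies that had just been moved to the cold. The genes are timeless (tim), period (per), vrille (vri), Par-domain protein 1 (Pdp1), Clock (Clk), cryptochrome (cry) and clockwork orange (cwo). They were taken by symbol from a table of 23932 genes, without a filter on their values but with earlier results of these data known. All 7 were among the 7358 genes tested, those with a median above 5 TPM on days 4-5 at 18°C or at 25°C. TPM is the length- and library-scaled transcript abundance. Females of the isogenic w1118 strain Iso31, aged together with males, had been entrained to light-dark cycles at 25°C. At an age of 7 days they were shifted to 18°C, or they stayed at 25°C. Hours are counted here from lights on (zeitgeber time, ZT00) of day 1, when the shift to 18°C began. The first 36 h at 18°C hold 18 libraries, 1 every 2 h, and hour 18 was not analysed here. The same period at 25°C holds 5 libraries, at hours 0, 6, 12, 18 and 24. Days 4-5 served as the settled state, with 24 libraries at 18°C and 26 at 25°C. Each library is a pool of hand-dissected fat bodies from 1 collection, and days 1-2 have no replicate at any hour.

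The fly clock is a transcriptional feedback loop. The proteins CLK and CYC bind E-box elements and activate per, tim, vri, Pdp1 and cwo, PER and TIM then enter the nucleus and inhibit CLK, and light acting through CRY removes TIM. In an interlocked loop VRI represses Clk and PDP1 activates it, so that Clk and cry transcripts peak opposite to per and tim. The fat body carries such a clock of its own, which is known for timing feeding and metabolism, and cold is known to alter splicing of per and tim transcripts in flies, which gene-level values cannot show.

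In the Ensembl BDGP6.54 annotation, tim (FBgn0014396) lies on chromosome 2L at 3493986 to 3508119, vri (FBgn0016076) on 2L at 5288944 to 5311223 and per (FBgn0003068) on X at 2685580 to 2692780. Clk (FBgn0023076) lies on 3L at 7763233 to 7775603 and Pdp1 (FBgn0016694) on 3L at 7811458 to 7867369. The other members are cry (FBgn0025680), on 3R at 19212154 to 19215442, and cwo (FBgn0259938), on 3R at 10388258 to 10400752. The libraries did not keep strand, and exon bases shared with another gene make up 17.8% of cry, 9.89% of tim and 1.08% of per, and 0% of the other members. Of the overlapping genes in the table, vib alone had a median above 5 TPM, and it shares 9 bases with cry.

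TPM are relative to the library total, so sequencing depth is not kept and precision rests on the number of libraries. In these bulk samples, fewer cells of a type and less RNA per cell cannot be told apart. The 12 fat-body markers were detected in every group, and their score (the mean of log2(TPM + 1)) averaged between 9.28 and 9.36 in the 4 groups. The 18°C library of hour 24 stood apart, with a fat-body score of 7.91 against 9.13 to 9.72 in the other 18°C libraries of days 1-2, the lowest median correlation with its group (0.906) and a germline score of 5.33. The only 18°C library of days 1-2 with a higher germline score was that of hour 32, at 5.68. Positions between the settled curves, differences at matched hours and the change of the temperature difference between periods are given with and without hour 24. Clock-time offsets and fitted peak times are given only with it. The summed level of the 9 muscle markers had a median of 5675 TPM on days 1-2 and 3769 TPM on days 4-5 at 18°C. At 25°C the medians were 6847 and 4972 TPM, so they were higher on days 1-2 at both temperatures. The summed level of these markers was 4296 to 7323 TPM on days 1-2 and 2140 to 7532 TPM on days 4-5 at 18°C, and 5444 to 8403 TPM on days 1-2 and 2829 to 7001 TPM on days 4-5 at 25°C. That of the 12 eggshell markers was 4.21 to 9045 TPM on days 1-2 and 3.35 to 13206 TPM on days 4-5 at 18°C, and 94.7 to 4536 TPM on days 1-2 and 2.64 to 7113 TPM on days 4-5 at 25°C. Mean scores of the germline, gut, Malpighian tubule, neuron and glia, and hemocyte lists were 3.15, 1.55, 3.31, 1.43 and 4.86 on days 1-2 at 18°C, and no marker of any list was at 0 in all libraries of a group. Their part in the level differences below was not tested.

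To ask when the clock transcripts took on their cold timing, the values of days 1-2 were set against the fitted 24 h curves of the settled days. At hour 0, as the shift began, 1 of the 7 genes lay nearer the settled 18°C curve than the settled 25°C curve. At hours 4 and 6 all 7 did. Over hours 2 to 10 the 18°C values of per, vri and tim all lay above their settled 25°C curves, and at hour 12 only that of per did. Clk was below its settled 25°C curve at each hour from 2 to 14 at 18°C. It was also below that curve in all 5 libraries kept at 25°C, with residuals of -0.63, -0.50, -0.45, -0.30 and -0.02 at hours 0, 6, 12, 18 and 24 on the log2 scale.

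**Figure D1:**
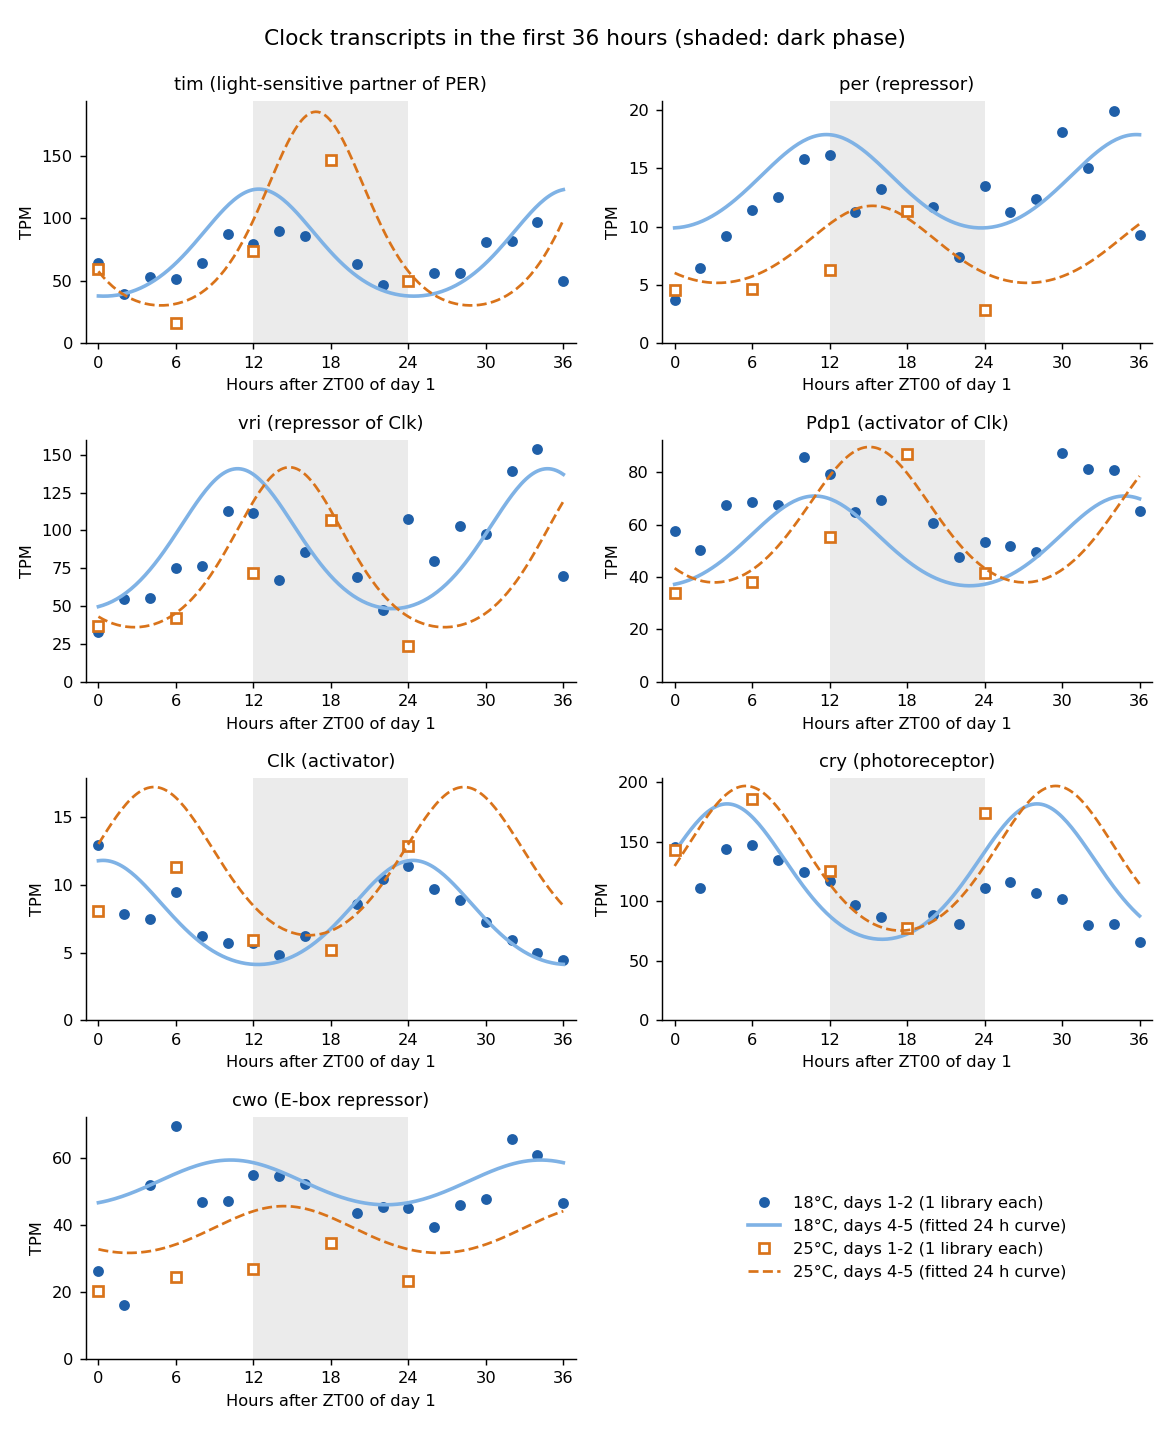
TPM of each clock gene (y axis, each panel from 0) against hours after ZT00 of day 1 (x axis), with filled circles for single 18°C libraries, open squares for single 25°C libraries of days 1-2, and lines for the fitted 24 h curves of days 4-5 at 18°C (solid) and 25°C (dashed). The circles of Clk lie close to the solid line from hour 24 on, and tim, per and vri drop at hour 36, to 49.5, 9.26 and 70.0 TPM.

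The fitted peak times of days 1-2 at 18°C, from all 18 libraries with hour 0 included, lay before those of the settled 25°C days for all 7 genes. Differences in timing or amplitude were tested with limma as the 24 h terms of the fit on log2(TPM + 1), with Benjamini-Hochberg adjustment over all tested genes. Against the settled 25°C days, 4 of the 7 differed (tim, vri, Clk and Pdp1), where 0.217% of all tested genes did (16 genes). The adjusted p of tim, 4.65e-05, was the smallest of all tested genes. The others were 0.000510 for vri, 0.00794 for Clk and 0.0115 for Pdp1, and all 4 genes were called in each of their 26 or 27 alternatives. The adjusted p was 0.119 for per, which was called with rescaled TPM (0.0293) and without hour 2 (0.0445), 0.184 for cry and 0.809 for cwo. At an unadjusted p under 0.05 there were 6 of 7 members, all but cwo, where 9.4% of all tested genes passed.

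Against the settled 18°C days, 0 of 7 clock genes differed in their 24 h terms with limma, as did 0% of all tested genes. At an unadjusted p under 0.05 the 24 h terms of 3 members differed (tim, cry and vri), where 5.78% of all tested genes did. Those 3 have the lowest amplitude ratios of days 1-2 to the settled 18°C days, 0.406 for tim, 0.388 for cry and 0.608 for vri. The design compares different days at 1 temperature here, and in the comparison with 25°C, temperature and days after the shift cannot be told apart.

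**Figure D2:**
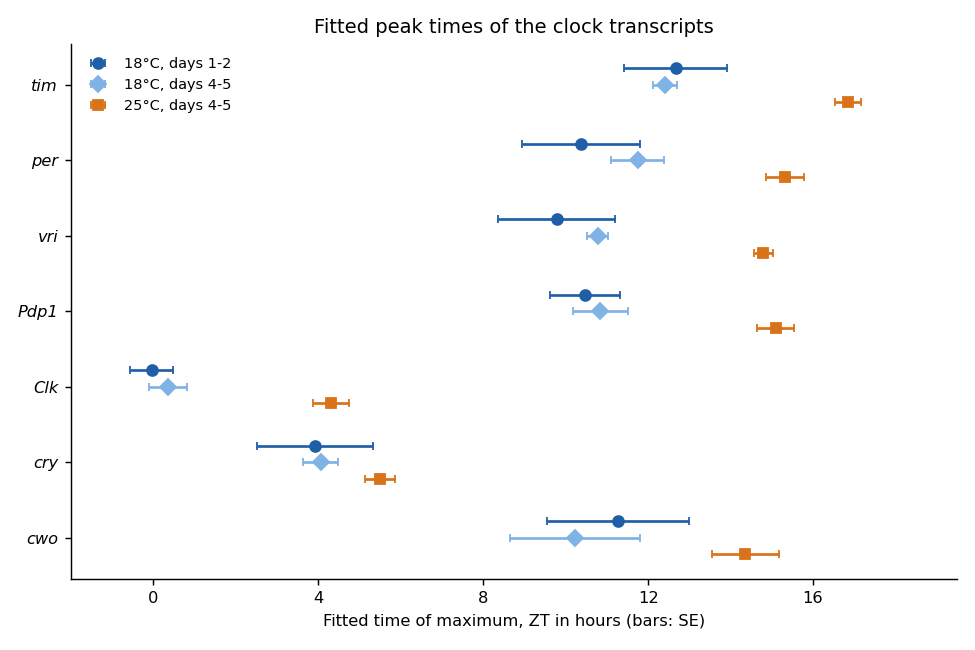
Fitted time of the maximum (x axis, ZT in hours, bars show the delta-method SE) for each clock gene, with circles for 18°C days 1-2 (18 libraries), diamonds for 18°C days 4-5 (24 libraries) and squares for 25°C days 4-5 (26 libraries). For tim the circle is at ZT 12.7, the diamond at ZT 12.4 and the square at ZT 16.8, and the circle lies left of the square for all 7 genes (for Clk at ZT 23.96, drawn just left of 0).

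The tim transcript, whose protein is the light-sensitive partner of PER, had an early and shallow fitted peak on days 1-2 at 18°C. Its lowest, median and highest values were 39.2, 64.0 and 96.9 TPM over the 18 libraries of days 1-2 at 18°C, against 19.03, 101 and 200 TPM over the 26 settled libraries at 25°C. All values of days 1-2 at 18°C lay inside the settled 25°C range. At hours 10, 12, 14 and 16 the 18°C libraries held 87.4, 79.7, 89.8 and 86.0 TPM, a broad plateau around lights off. The 24 h fit held hour 0, taken as the shift began. It also held hour 36, at 49.5 TPM and with a residual of -1.30 from the settled 18°C curve on the log2 scale. The fitted maximum was at ZT 12.7 (SE 1.25 h, n = 18), 4.18 h (SE 1.29 h) before that of the settled 25°C days. It was 0.248 h (SE 1.29 h) after that of the settled 18°C days. The amplitude was 0.34 (SE 0.0934) on the log2 scale, 0.266 times that of the settled 25°C days. In the dark phase the settled 25°C curve rose far above these libraries. Over hours 14 to 22 the mean residual from it was -0.96 on the log2 scale, and that from the settled 18°C curve was -0.04 (4 libraries).

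The per transcript encodes the repressor that pairs with TIM. It was at 3.69 TPM in the 18°C library of hour 0, and at 6.43, 9.23, 11.4, 12.6, 15.8 and 16.2 TPM at hours 2, 4, 6, 8, 10 and 12, higher at each hour than at the one before. In the 25°C libraries it was at 4.54, 4.62 and 6.30 TPM at hours 0, 6 and 12. The settled 18°C libraries held 7.95 to 20.5 TPM, so hours 0 and 2 lay below their range, and so did hour 22, at 7.41 TPM. The residuals of hours 2 to 12 from the settled 18°C curve averaged -0.29 and all 6 were negative, and those from the settled 25°C curve averaged 0.68 and all 6 were positive. The fitted maximum was at ZT 10.4 (SE 1.44 h), 4.96 h (SE 1.51 h) before that of the settled 25°C days.

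The vri transcript, an E-box target whose protein represses Clk, followed per closely. It was at 32.6 TPM in the 18°C library of hour 0 and at 113 and 112 TPM at hours 10 and 12. At hour 14 it was down at 67.3 TPM. The highest values of days 1-2 at 18°C were 139 TPM at hour 32 and 153 TPM at hour 34. The 25°C libraries held 36.96, 42.2, 71.6, 107.1 and 23.9 TPM at hours 0, 6, 12, 18 and 24, with the maximum in the dark phase. The fitted maximum at 18°C was at ZT 9.78 (SE 1.41 h), 5.01 h (SE 1.43 h) before that of the settled 25°C days. The 18°C value of hour 24, 107.2 TPM, came from the library that stood apart, and it lay 1.10 above the settled 18°C curve on the log2 scale.

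Pdp1, which activates Clk, was the only member whose fitted mean was called higher than on the settled 18°C days. Against the settled 25°C days it was not called (0.11, adjusted p = 0.269, limma). Its lowest, median and highest values were 47.5, 66.3 and 87.2 TPM over the 18 libraries of days 1-2 at 18°C, against 25.1, 56.4 and 84.8 TPM over the 24 settled libraries at 18°C. The ranges overlap, and the highest value, at hour 30, was above every settled 18°C library. Residuals from the settled 18°C curve were positive in every 18°C library of days 1-2 except that of hour 36. They include that of hour 0, taken as the shift began, which was already 0.61 on the log2 scale. The fitted maximum was at ZT 10.47 (SE 0.842 h), 0.374 h (SE 1.07 h) before that of the settled 18°C days.

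Transcripts of cwo, an E-box repressor, moved abruptly. The 18°C libraries of hours 0 and 2 held 26.2 and 15.95 TPM, and those of hours 4 and 6 held 52.1 and 69.8 TPM. From hour 8 on they held between 39.3 and 65.8 TPM. All 5 libraries of days 1-2 at 25°C stayed between 20.3 and 34.5 TPM, below each 18°C library from hour 4 on. The settled 18°C libraries spanned 34.2 to 73.1 TPM, so only hours 0 and 2 were below them. The cwo rhythm is shallow, with an amplitude of 0.35 (SE 0.132) on days 1-2 at 18°C, 0.18 (SE 0.0828) on days 4-5 at 18°C and 0.26 (SE 0.0563) on days 4-5 at 25°C, and its fitted phase at 18°C carries an SE of 1.72 h on days 1-2.

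Clk, the activator of the loop, showed the clearest daily rhythm. With a harmonic regression F-test over the 18 libraries of days 1-2 at 18°C, 1 of the 7 members was rhythmic (Clk, adjusted p = 0.00677), where 0.0136% of all tested genes, Clk alone, were. At an unadjusted p under 0.05 there were 5 rhythmic members (Clk, Pdp1, tim, per and vri) where 7.07% of all tested genes were rhythmic. The 18°C libraries of hours 0, 2, 4, 6, 8, 10, 12 and 14 held 12.9, 7.83, 7.49, 9.47, 6.25, 5.68, 5.69 and 4.80 TPM of Clk. Its values at hours 16, 20, 22 and 24 were 6.24, 8.62, 10.5 and 11.4 TPM, and they then declined at every step to 4.49 TPM at hour 36. The fitted maximum was at ZT 23.96 (SE 0.517 h), 4.35 h (SE 0.678 h) before that of the settled 25°C days. Over hours 24 to 36 the root mean square distance of Clk from the settled 18°C curve was 0.103, and that from the settled 25°C curve was 0.868, on the log2 scale. With TPM rescaled by a median-of-ratios factor per library the adjusted p for a Clk rhythm was 0.0553, and leaving out single libraries gave 0.00137 to 0.0375.

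The photoreceptor gene cry had its fitted maximum in the morning, as in both settled states. Its fitted maximum on days 1-2 at 18°C was at ZT 3.92 (SE 1.41 h), 1.58 h (SE 1.46 h) before that of the settled 25°C days, a difference close to its error. The amplitude was 0.27 (SE 0.110), against 0.70 (SE 0.0719) in the settled 18°C days and 0.69 (SE 0.0585) in the settled 25°C days. From hour 4 to hour 12 it was between 117 and 148 TPM at 18°C, and from hour 32 on it was between 65.9 and 81.2 TPM. The settled libraries spanned 53.8 to 181 TPM at 18°C and 59.5 to 183 TPM at 25°C, so no value of days 1-2 at 18°C was outside either range.

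To describe how far each gene had moved, its values were placed between the settled curves by a least-squares slope, which is 0 on the 25°C curve and 1 on the 18°C curve. Over hours 2 to 12 the slope was already 0.882 (SE 0.148) for Clk, 0.708 (SE 0.0782) for per, 0.651 (SE 0.153) for tim and 0.552 (SE 0.0892) for vri. The values of per lay between the curves at all 6 of these hours, while tim and vri were below both at hour 12. Over hours 14 to 22 the slope of per was 0.214 (SE 0.236), with 1 of 4 libraries nearer the 18°C curve, that of Pdp1 was 0.419 (SE 0.152) and that of Clk was 0.688 (SE 0.146). In the same window it was 0.947 (SE 0.144) for tim, 1.11 (SE 0.568) for vri and 0.861 (SE 0.0737) for cwo, so the slopes did not rise steadily for every gene. Over hours 24 to 36 the slopes were 0.993 (SE 0.0483) for Clk, 1.05 (SE 0.176) for per, 0.889 (SE 0.319) for tim and 1.26 (SE 0.312) for vri, all within their SE of 1. For cwo it was 0.468 (SE 0.451) over hours 2 to 12 and 0.799 (SE 0.123) over hours 24 to 36. Pdp1 was at 1.77 (SE 0.392) over hours 2 to 12 and 1.73 (SE 0.507) over hours 24 to 36, windows in which its curves lie only 0.256 and 0.251 apart (root mean square, log2), and at 0.909 (SE 0.236) over hours 2 to 36. For cry, whose curves lie 0.248 apart over hours 2 to 36, the slope swung between -0.575 (SE 0.436) over hours 14 to 22 and 2.57 (SE 0.737) over hours 24 to 36, and for neither gene does it give a firm position. In the 5 libraries kept at 25°C the slope was 0.524 (SE 0.236) for Clk, 0.156 (SE 0.498) for cry and 0.0108 (SE 0.347) for Pdp1, and it was below 0 for the other 4 genes. Without the library of hour 24 the slopes over hours 24 to 36 were 0.991 for Clk, 1.01 for per, 0.949 for tim, 1.21 for vri, 0.788 for cwo, 2.09 for Pdp1 and 2.72 for cry. These slopes are descriptions with no test.

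**Figure D3:**
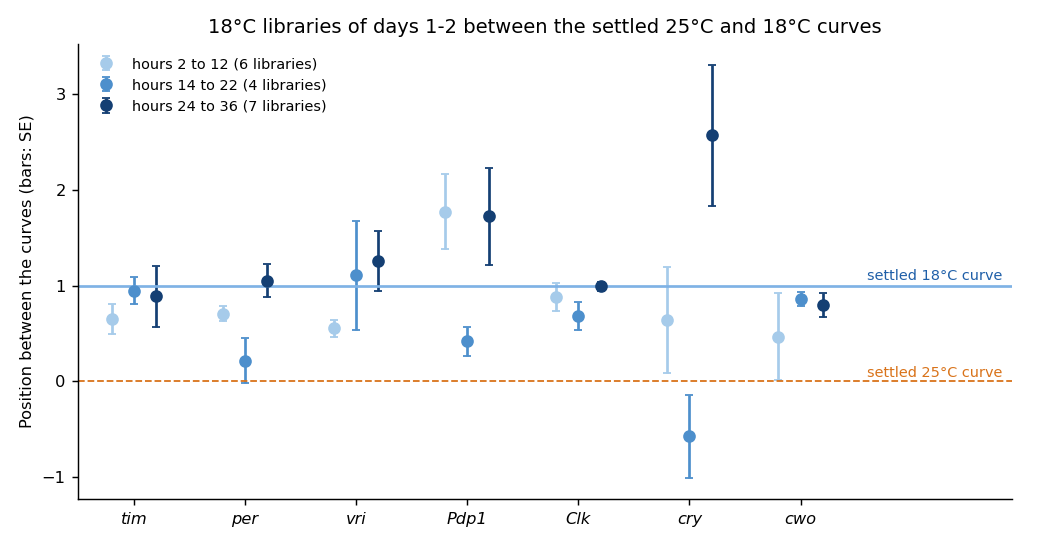
Position of the 18°C libraries of days 1-2 between the settled curves (y axis, 0 on the 25°C curve and 1 on the 18°C curve, bars show the SE) for each clock gene and for hours 2 to 12 (6 libraries), 14 to 22 (4 libraries) and 24 to 36 (7 libraries). Clk, per, tim, vri and cwo are between 0.468 and 0.882 over hours 2 to 12, between 0.214 (per) and 1.11 over hours 14 to 22 and between 0.799 and 1.26 over hours 24 to 36, while cry ranges between -0.575 and 2.57.

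Counted per library, all 7 genes lay nearer the settled 18°C curve at hours 4, 6, 28, 30, 32 and 34. In the dark phase, at hours 14, 16, 20 and 22, it was 5, 4, 5 and 4 of 7. At hour 12 it was 3 of 7, at hour 24 it was 4, and at hour 36 it was again 3. At ZT12 the settled 18°C and 25°C curves lie close for vri (7.11 and 6.91, log2) and Pdp1 (6.15 and 6.31). At hour 36 tim, per, vri and Pdp1 were below both curves, so the nearer curve says little there. The 25°C libraries of hours 0, 6, 12, 18 and 24 had 3, 0, 2, 0 and 1 of 7 nearer the 18°C curve. A clock time was also read for each library as the time of day at which the settled 25°C curves of the 7 genes fit it best. Its median offset ahead of the labelled ZT was 2.65 h over hours 2 to 12 at 18°C (range -2.55 to 5.55 h, 6 libraries). Over hours 24 to 36 it was 6.95 h (range 4.45 to 10.75 h, the highest at hour 24, 7 libraries). Over hours 14 to 22 it was 2.23 h (4 libraries), and -1.93 h without vri. The settled 18°C libraries gave 3.8 h (range 1.1 to 10.85 h, 24 libraries) and the 25°C libraries of days 1-2 gave 0.55 h (range -1.5 to 9.9 h, 5 libraries). The settled 25°C libraries, each left out of its own curve, gave 0.175 h (SD 1.05 h, 26 libraries). Hours 2 to 12 and 24 to 36 lie within ZT00 to ZT12, whereas the settled libraries cover the whole day, so these medians are not matched for ZT. With each gene centred on its own group's level, which removes level but not amplitude, the medians were 1.48 h over hours 2 to 12 and 5.8 h over hours 24 to 36 at 18°C, against 3.08 h in the settled 18°C libraries. These ranges overlap.

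The daily level, the mean of the fitted curve, was compared in the same fits. Against the settled 18°C days, 1 of 7 members differed, where 34.1% of all tested genes were called and 5.9% were called higher. Pdp1 was higher by 0.30 (SE 0.0857, adjusted p = 0.00821, limma) on the log2(TPM + 1) scale. The call on Pdp1 held in all 26 alternatives. With the replicate block cwo was called too (-0.26, adjusted p = 0.0429). The differences of the other 6 lay between -0.18 for per (SE 0.1002, adjusted p = 0.160) and 0.03 for Clk (SE 0.0870, adjusted p = 0.827). The median difference was -0.10 over the members and -0.16 over all tested genes. Rescaling TPM by a median-of-ratios factor moved the median of all genes to -0.04, turned the calls over all genes to 953 higher and 935 lower, against 434 higher and 2074 lower as deposited, and put Pdp1 at 0.43. With rescaled TPM the signs of tim and vri also turned, to 0.03 and 0.08, neither of them called.

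Against the settled 25°C days, 4 of 7 members differed in level, where 40.5% of all tested genes did. Temperature and days after the shift cannot be told apart in this comparison. The level of per was higher by 0.51 (SE 0.0926, adjusted p = 2.61e-05) and that of cwo by 0.28 (SE 0.0973, adjusted p = 0.0213). That of Clk fell by 0.48 (SE 0.0768, adjusted p = 3.59e-06) and that of cry fell by 0.30 (SE 0.0821, adjusted p = 0.00294), all with limma. For all tested genes, 14.6% were called higher and 26% lower, and with rescaled TPM 1594 were higher and 1692 lower, against 1073 and 1910 as deposited. The call on cwo was lost without the 18°C library of hour 20 (0.26, adjusted p = 0.0524) or of hour 22 (0.24, adjusted p = 0.0614), with the replicate number as a block (0.23, adjusted p = 0.0651) and without replicate 2 (0.24, adjusted p = 0.0838), and the calls on per, Clk and cry held in every alternative. Differences of tim (-0.24, adjusted p = 0.0746), vri (0.15, adjusted p = 0.240) and Pdp1 (0.11, adjusted p = 0.269) did not pass, while vri did with rescaled TPM (0.20, adjusted p = 0.0326) and tim with 12 h terms added (-0.27, adjusted p = 0.0297).

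The flies kept at 25°C offered a check on the days themselves, and they too differed from the settled days. Against the settled 25°C days, the 5 libraries of days 1-2 at 25°C had 4 of 7 members called, all lower, where 20.7% of all tested genes were called, 4.69% higher and 16% lower. For cwo the 5 values were 20.3, 24.5, 27.0, 34.5 and 23.2 TPM at hours 0, 6, 12, 18 and 24, against a lowest, median and highest of 29.3, 37.9 and 57.9 TPM over the 26 settled libraries. Only the value of hour 18 overlapped the settled range, and the difference was -0.52 (SE 0.0946, adjusted p = 0.000588, limma), called in all 12 alternatives. The differences of per (-0.40, SE 0.122, adjusted p = 0.0213), vri (-0.39, SE 0.117, adjusted p = 0.0193) and Clk (-0.39, SE 0.125, adjusted p = 0.0293) each rested on single libraries. Without hour 12, the 25°C library with the highest germline score of that group (5.06), they were -0.32, -0.28 and -0.37, with adjusted p of 0.131, 0.158 and 0.1002. Without hour 24, per was at -0.29 (adjusted p = 0.0968) and vri at -0.29 (adjusted p = 0.0925). Without hour 0, Clk was at -0.32 (adjusted p = 0.116), and without hour 6 it was at -0.36 (adjusted p = 0.0785). With rescaled TPM, Clk was at -0.30 (adjusted p = 0.0776). As the rescaled TPM gave 739 genes higher and 667 lower, against 345 and 1180 as deposited, the split over all genes depends on the scaling, while each of the 7 members had the same sign under both.

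**Figure D4:**
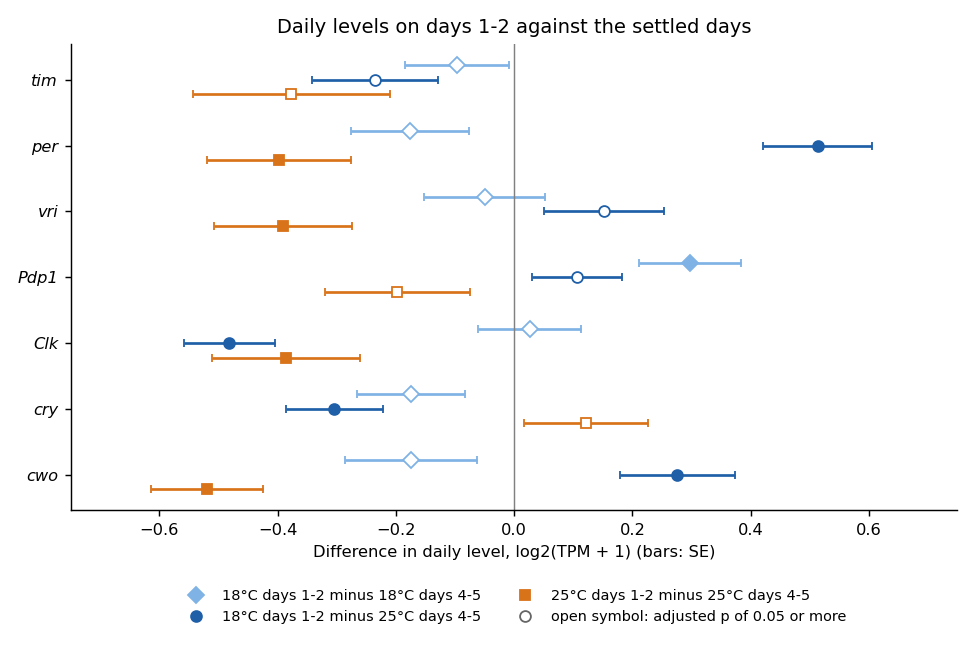
Difference in daily level on the log2(TPM + 1) scale (x axis, bars show the SE) for each clock gene, with diamonds for 18°C days 1-2 minus 18°C days 4-5, circles for 18°C days 1-2 minus 25°C days 4-5 and squares for 25°C days 1-2 minus 25°C days 4-5. Open symbols have an adjusted p of 0.05 or more with limma. The squares of per (-0.40) and cwo (-0.52) are left of 0 and their circles (0.51 and 0.28) right of it.

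At the hours of days 1-2 that both temperatures share after the shift (6, 12 and 24), per was 2.48, 2.57 and 4.68 times as high at 18°C as at 25°C. The ratio was 2.84, 2.04 and 1.94 for cwo and 1.78, 1.56 and 4.50 for vri. For tim it was 3.23 at hour 6, with 51.7 TPM at 18°C and 16.01 TPM at 25°C, and 1.08 and 1.01 at hours 12 and 24. The values of per, vri, cwo and Pdp1 were higher at 18°C at each of these 3 hours, while Clk and cry had ratios below 1 at each. At hour 0, as the shift began, Pdp1 was already 1.69 times as high at 18°C (57.5 against 33.9 TPM), beside 1.80, 1.44 and 1.28 at hours 6, 12 and 24, and Clk was 1.61 times as high. The hour 0 ratio of per was 0.813, that of vri 0.883 and that of cwo 1.29. With limma on 3 pairs, 0 of 7 members were called, as were 0% of all tested genes. At an unadjusted p under 0.05 there were 4 members (per, vri, Pdp1 and cwo) where 13.4% of all tested genes passed. The differences were 1.43 for per (SE 0.345, adjusted p = 0.234), 1.19 for vri (SE 0.336, adjusted p = 0.265) and 1.13 for cwo (SE 0.241, adjusted p = 0.217). The median of all tested genes was 0.16, and -0.05 with rescaled TPM, where those of per, vri and cwo were 1.24, 0.97 and 0.92. Without hour 24, whose 18°C library stood apart, they were 1.19 for per, 0.73 for vri and 1.23 for cwo (adjusted p = 0.0707, 0.0780 and 0.0707, limma).

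Whether the temperature difference itself differed between days 1-2 and days 4-5 was tested with limma at ZT00, ZT06 and ZT12, over 25 libraries, in a comparison chosen after the data had been examined. It called 0 of 7 members, where 1.18% of all tested genes were called. The estimate nearest to a call was that of cwo, whose 18°C minus 25°C difference was larger on days 1-2 by 0.67 (SE 0.175, adjusted p = 0.0692). For Clk, which was lower at 18°C in both periods, the estimate was 0.69 (SE 0.261, adjusted p = 0.174), which stands for a smaller gap on days 1-2. For cry the estimate was -0.03 (SE 0.223, adjusted p = 0.954). At an unadjusted p under 0.05 there were 3 members (Pdp1, Clk and cwo), where 18.4% of all tested genes passed. Without the 18°C library of hour 24 the estimates were 0.70 for cwo (adjusted p = 0.102, limma) and 0.82 for Clk (adjusted p = 0.196, limma). Those of tim, vri, per and Pdp1 were 0.45, 0.55, 0.43 and 0.61 with that library and 0.18, 0.23, 0.33 and 0.41 without it.

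The 18°C libraries also allow day 2 to be set against day 1 at the same ZT, which cancels a daily rhythm that is the same on both days. It does not cancel changes in timing or amplitude between the days, or differences in tissue content. Germline scores at ZT02, ZT04, ZT06, ZT08, ZT10 and ZT12 were 4.97, 4.37, 3.31, 5.68, 3.02 and 1.43 on day 2. On day 1 they were 2.52, 3.51, 1.80, 3.06, 2.56 and 1.34, lower at each ZT, and their part in the differences was not tested. At ZT02, ZT04, ZT06, ZT08, ZT10 and ZT12 cry was at 116, 107.1, 102, 79.9, 81.2 and 65.9 TPM on day 2, against 111, 144, 148, 134, 124 and 117 TPM on day 1. It was lower on day 2 in 5 of 6 pairs, and the exception was ZT02. The mean difference was -0.51 (SE 0.122, adjusted p = 0.0620, limma), which did not pass, and it was -0.69 with rescaled TPM (adjusted p = 0.0414) and -0.49 with the ZT00 pair added (adjusted p = 0.0379). In the other direction, vri was at 79.6, 103, 97.5, 139, 153 and 70.0 TPM on day 2, against 54.8, 55.6, 75.1, 76.7, 113 and 112 TPM on day 1. It was higher on day 2 in 5 of 6 pairs, by 0.40 on average (SE 0.190, adjusted p = 0.202), and the exception was ZT12.

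The same ZT12 pair was the exception for tim and per, which were also higher on day 2 in 5 of 6 pairs. At ZT12 tim was at 49.5 TPM on day 2 and 79.7 TPM on day 1, and per was at 9.26 TPM on day 2 and 16.2 TPM on day 1. The library of hour 36 had a fat-body score of 9.24 and a germline score of 1.43, inside the range of the other 18°C libraries, and Clk was at 4.49 TPM there, close to the settled 18°C curve. Without ZT12 the mean difference of vri was 0.61 (adjusted p = 0.0295) and the count over all genes was 766. With all 6 pairs, 0 of 7 members were called with limma, where 0.951% of all tested genes were called (59 higher and 11 lower, and 44 and 30 with rescaled TPM), and leaving out single pairs gave counts of 0 to 766. At an unadjusted p under 0.05 there was 1 member, cry, where 27.7% of all tested genes passed. The median difference of all tested genes was 0.17, and 0.00 with rescaled TPM, and with rescaled TPM those of tim, per and vri were -0.01, 0.09 and 0.22.

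**Figure D5:**
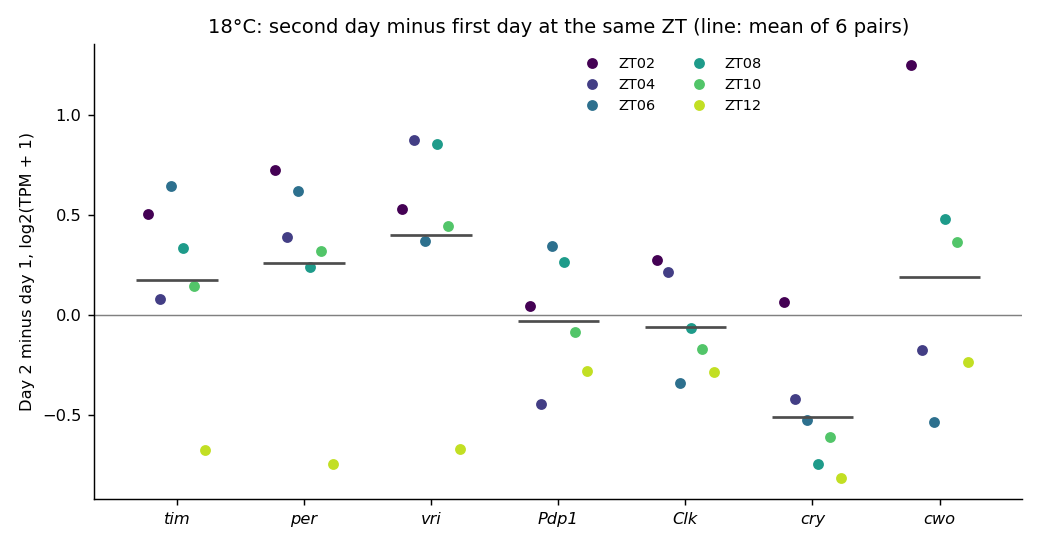
Day 2 minus day 1 at 18°C on the log2(TPM + 1) scale (y axis) for each clock gene, with a point for each of 6 ZT and a line at their mean. Points of cry are below 0 except at ZT02, and the ZT12 points of tim, per and vri lie at -0.68, -0.74 and -0.67 while their other points are above 0.

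The genes varied together, as far as single libraries show. Over the 17 libraries of days 1-2 at 18°C after hour 0, Pearson's r was 0.892 between per and vri, 0.816 between tim and per and 0.770 between tim and Pdp1. These libraries share their scaling and their time of day, so r is a description. For cry, r with each other member was smaller in size at 18°C, in both periods, than over the settled 25°C days. With Clk it was 0.346 on days 1-2 at 18°C, 0.488 over the settled 18°C days (24 libraries) and 0.886 over the settled 25°C days (26 libraries). With tim it was -0.174, -0.426 and -0.779 in the same order, and with vri it was -0.112, -0.052 and -0.693. Such r depends on the timing of both genes and does not measure a link. The fitted maxima of cry and vri were at ZT 4.06 and ZT 10.8 on the settled 18°C days, and at ZT 5.51 and ZT 14.8 on the settled 25°C days. The amplitude of cry was 0.70 and 0.69 there. Among all tested genes over the 23 libraries of days 1-2 at both temperatures, the closest to per was vri and the closest to vri was per (r = 0.934). The next were CG10874 for per (r = 0.880) and CG14442 for vri (r = 0.842). For tim they were Pdp1 (r = 0.713) and ltl (r = 0.626), and for Pdp1 they were Bsg (r = 0.782) and per (r = 0.777). For Clk they were CG2277 (r = 0.813) and GstZ2 (r = 0.759), for cry Cyp4aa1 (r = 0.803) and Nurf-38 (r = 0.770), and for cwo CG33110 (r = 0.852) and sws (r = 0.842).

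Other genes of the clock pathway, a list of 24 partners, regulators and outputs such as kinases, phosphatases and ubiquitin ligases, were tested in 23 cases. Their 24 h terms on days 1-2 at 18°C differed from the settled 25°C days for 0 of 23 with limma, and for 1 at an unadjusted p under 0.05, near the 0.217% and 9.4% of all tested genes. In level they differed for 13 of 23, of which 9 were higher, where 40.5% of all tested genes were called, 14.6% higher and 26% lower. Among the kinases that phosphorylate PER or TIM, nmo was higher by 0.47 (SE 0.122, adjusted p = 0.00200), CkIalpha by 0.28 (SE 0.0496, adjusted p = 1.82e-05) and sgg by 0.25 (SE 0.0659, adjusted p = 0.00205). The F-box gene slmb, whose protein targets PER for degradation, was higher by 0.30 (SE 0.0564, adjusted p = 3.94e-05). The level of jet, whose protein acts with CRY in the light-driven degradation of TIM, was lower by 0.50 (SE 0.0619, adjusted p = 3.74e-08, limma). That of Bdbt, whose protein binds the PER kinase DBT, was lower by 0.44 (SE 0.0711, adjusted p = 4.39e-06, limma). The others called higher were wdb (0.32), Atx2 (0.25), CkIIalpha (0.18), CkIIbeta (0.18) and mts (0.18), and the others called lower were Lk6 (-0.30) and Usp8 (-0.26).

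Against the settled 18°C days, 4 of the 23 were called, all lower: CkIIalpha (-0.28), Bdbt (-0.27), jet (-0.25) and cyc (-0.25), the partner of Clk. That is fewer in share than the 34.1% of all tested genes called, 28.2% lower. The median of the 23 was -0.10, beside -0.16 over all tested genes. At 25°C the days 1-2 libraries had 8 of the 23 called, all lower than on the settled days, where 20.7% of all tested genes were called and 16% called lower, led by Lk6 (-0.54), Eip75B (-0.45) and kay (-0.41). The other 5 were Atx2 (-0.36), sgg (-0.26), ctrip (-0.25), CkIalpha (-0.24) and Pp1-87B (-0.14). Their median was -0.13, beside -0.09 over all tested genes and -0.39 over the 7 core members.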

How the data were processed

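Fat-body RNA of 73 libraries was sequenced. According to the methods, polyadenylated RNA went into NEBNext Ultra II libraries that do not keep strand, and the authors trimmed reads with Atropos, removed duplicate reads, aligned them with STAR 2.7.10a and quantified them with RSEM against Ensembl BDGP6.32. Whether the deposited table holds the deduplicated version is not given in the sources used here. The authors deposited TPM, which scales each gene by its length and each library to a fixed total, for 23932 genes. Depth is therefore not kept, and counting error cannot be stated. All columns were matched to samples (0 unmapped).

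Values were used as log2(TPM + 1), which understates changes of weakly expressed genes. Genes whose median on days 4-5 passed 5 TPM at 18°C or at 25°C (7358) entered limma 3.58.1 (lmFit, eBayes with trend) in R 4.3.3, with p adjusted by Benjamini-Hochberg with a threshold of 0.05. Fits had a level and cosine and sine terms of a 24 h period per group. The 18°C library of hour 0 was left out of the limma fits and kept in the rhythm test and in the fitted peak times and amplitudes. The 25°C days 1-2 shared the 24 h terms of the settled days, and other fits had ZT or hour as a block. P-values measure the spread of libraries of pooled flies around the fitted terms. With 1 library per hour on days 1-2, that spread also holds any departure from a 24 h curve, such as a change between days. Tests were tried on simulated data. No pair of libraries held identical values. Gene positions come from BDGP6.54, a later annotation of the same assembly.

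The 7 members and all lists (24 other clock genes, tissue markers) were chosen with earlier results of these data known. Named genes are the members, the listed clock genes that passed a test and, per member, the 2 tested genes with the highest r over the 23 libraries of days 1-2. Alternatives were another pseudocount (0.1), no filter or a median TPM above 20, TPM rescaled by a median-of-ratios factor, no variance trend, a replicate term, 12 h terms, and leaving out libraries or members.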

Additional observations from a re-analysis of the deposited data

Results flagged for a closer look

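Values far from the rest of their group were sought in 35 groups of 4 to 7 values of the clock genes, by the gap to the nearest value divided by the range. In all, 6 were found, where a chance of 1 in 20 gives 1.75. The groups share libraries and the genes vary together, so the groups are not independent and the excess cannot be judged from these numbers. Of the 6 values, 4 belong to the 18°C library of hour 36. Its residual from the settled 18°C curve was -1.30 for tim, against -0.18 to 0.49 in the other libraries of hours 24 to 36, and -0.88 for per, against -0.06 to 0.41. Its difference from day 1 at ZT12 was -0.74 for per, against 0.24 to 0.73 in the other pairs, and -0.67 for vri, against 0.37 to 0.87. The other 2 belong to the 18°C library of hour 2, taken soon after the shift began. Its residual from the settled 18°C curve was -1.56 for cwo, against -0.33 to 0.33 in the other libraries of hours 2 to 12, and -0.62 for per, against -0.31 to -0.13. Each hour is a single library, and a cause was not tested.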

How the results depend on the processing

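Of the results on single members, 1125 values under alternatives kept their direction and side of the threshold, 13 lost and 9 gained a call and 13 turned sign, none of these called. Turned signs, in level against the settled 18°C days, were tim at 0.0327 and vri at 0.0801 (rescaled TPM), vri leaving out single libraries (-0.12 to 9e-04, the highest without hour 22) and Clk at -0.0389 (replicate block) and -0.0433 to 0.0458 (leaving out replicate 2 or single libraries). For day 2 minus day 1 they were tim at -0.0082 (rescaled), cwo at -0.0196 without ZT02 (range to 0.337) and Pdp1 at 0.0565 and 0.0236 without ZT04 and ZT12 (range down to -0.10). Clk at the matched hours was 0.0444 with hour 0 added, and the temperature by period term of cry (range -0.31 to 0.12) was 0.12, 0.0723 and 0.0079 without the 18°C libraries of hours 6 and 24 and the 25°C library of hour 24. The cause was not tested.

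Counts of called genes in level, with a median TPM above 20 and so fewer genes tested, were 1566 against the settled 18°C days and 1934 against the settled 25°C days. In 24 h terms against the settled 18°C days, the counts were 1 (median above 20), 1 (replicate block), 3 (without replicate 2) and 0 to 1 leaving out single libraries. Against the settled 25°C days they were 38 with rescaled TPM and 13 to 27 leaving out single libraries. For 25°C days 1-2 the counts were 2381 with the replicate block, 756 to 1794 leaving out single libraries (756 without hour 0, 760 without hour 12), and 2199 without replicate 2. Day 2 against day 1 gave 0 (no filter), 7 (no variance trend), 647 (ZT00 pair added) and 0 to 766 leaving out pairs. Matched hours gave 0 to 205 leaving out hours. Rhythmic genes numbered 0 (median above 20, and rescaled TPM), 2 (hour 0 left out) and 1 to 4 leaving out single libraries. The temperature by period term called 266 genes with rescaled TPM and 4 to 130 leaving out libraries.

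The labels do not tie replicate numbers to a shared batch, and the replicate difference of the settled days correlated by 0.203 between temperatures across genes. With 1 such pairing, and none on days 1-2, the numbers were not taken as pairs, and whether a batch goes with the number was not tested. With the replicate block cwo lost its level call against the settled 25°C days (0.23, adjusted p = 0.0651, limma; 0.0838 without replicate 2) and gained one against the settled 18°C days (-0.26, adjusted p = 0.0429; 0.0474 without replicate 2). No other call on a member changed with the block. Without replicate 2 the positions were 1.14 for Clk over hours 24 to 36, 1.07 for Clk over hours 2 to 36 and 0.644 for cwo over hours 14 to 22, and without hour 24 those of Clk were 0.991 and 0.928.

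Median clock-time offsets with centred genes were 1.48, 3.5 and 5.8 h over hours 2 to 12, 14 to 22 and 24 to 36 at 18°C and -0.65 h at 25°C on days 1-2. Leaving out single genes gave 2.25 to 3.1, -1.93 to 2.65 and 6.3 to 7.45 h at 18°C on days 1-2, 3.45 to 3.73 h at 18°C on days 4-5 and 0.35 to 1.15 h at 25°C on days 1-2. The offset over hours 14 to 22 turned sign without vri (-1.93 h). Depth is not kept in TPM, single libraries stand for each hour, and per and Clk, with medians under 20 TPM, were absent from the stricter filter.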
